A study of Mus musculus with 12 samples.

Results

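The 10 genes described here belong to the oxygen-sensing pathway of mammalian cells. They were taken by name from the 34866 genes of the deposited table, and each symbol had 1 Ensembl identifier. 2 of them encode oxygen-regulated subunits of the hypoxia-inducible factors (Hif1a and Epas1), 2 encode prolyl hydroxylases (Egln1 and Egln3) and 1 encodes the recognition subunit of a ubiquitin ligase (Vhl). The other 5 are genes induced in low oxygen: the secreted factors Vegfa and Adm, the carbonic anhydrases Car9 and Car12, and Ndrg1. Messenger RNA was measured in 12 libraries of immortalized mouse embryonic fibroblasts (MEFs), 3 from each of 4 groups. Male WT and female WT cells were Sirt3+/+ and of the 129S1/SvImJ strain, and male KO and female KO cells were Sirt3-/- and came from a Jackson stock. Sirt3 is a mitochondrial deacetylase, and the study asked whether its loss acts differently in male and female cells. All cells were isolated from individual embryos at 13 days, sexed by PCR for Sry, made permanent with SV40 T antigen, kept in 5% CO2 and harvested at passage 6, 48 h after seeding. The sources used here name no low-oxygen treatment of any group. The number of lines per group is not stated and the wells were seeded in triplicate, so the 3 libraries of a group may be technical replicates. If each group is 1 line, the effects of genotype and sex cannot be told apart from those of the line, and the p-values describe differences between lines. All WT cells came from 129S1/SvImJ and all KO cells from another stock. Genotype therefore cannot be told apart from stock, whatever the number of lines.

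Levels are given in TPM, a share of the library's transcripts that is scaled by transcript length. A library had 12256 to 12637 genes at 1 TPM or above, and its top 10 genes took 5.82% to 7.33% of the total. The depth of the libraries is not known from TPM, and no counting error is given. Sirt3 RNA did not go down with the KO label. Its mean was 7.61 ± 1.30 TPM in male WT, 10.3 ± 1.19 in male KO, 7.90 ± 0.695 in female WT and 8.27 ± 0.749 in female KO (SD, n = 3 each). These values cannot show if an altered transcript is made, and KO means a library labelled KO throughout. The paper also shows an immunoblot of Sirt3 protein, which was not read here. Of 13 fibroblast marker genes, 13 had a mean of at least 1 TPM in every group.

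In oxygen, prolyl hydroxylases modify the alpha subunits of the hypoxia-inducible factors, the Vhl protein binds the modified subunit, and the proteasome destroys it. In low oxygen the subunit persists, pairs with Arnt and activates genes for glucose use, angiogenesis, pH control and matrix assembly. This control acts mainly on protein stability, so the level of Hif1a RNA is not a measure of Hif1a protein. The paper measured that protein by immunoblot and reports a male-specific rise in KO cells. Those blots were not read here. Egln3, Vegfa, Adm, Car9, Car12 and Ndrg1 are themselves among the genes the pathway is known to induce.

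The binding site of the factors holds the letters ACGTG or GCGTG. Windows of 300 bases around the start of a transcript, 250 before it and 50 from it on, were read from RefSeq on GRCm38.p6 and searched for both words on both strands. Windows were at hand for 8 of the 10 genes, with 2 for Vegfa; Epas1 and Ndrg1 had none. Of the 8 genes, 6 had at least 1 of the words and 5 had ACGTG. Vegfa is in both counts only through its window at chr17:46025114-46025413, which lies inside its GENCODE span. The other Vegfa window held neither word. These counts are of genes, and the shares that follow are of windows. Over all 32851 windows of this length, 43.8% held either word, 19.6% held ACGTG and 32.4% held GCGTG. Shown are Hif1a, Egln3 and Car12, which were called between male KO and male WT, and Car9, a widely used marker gene of the pathway. Capitals mark ACGTG, or its complement where it lies on the other strand.
Hif1a (chr12:73907617-73907916, plus strand): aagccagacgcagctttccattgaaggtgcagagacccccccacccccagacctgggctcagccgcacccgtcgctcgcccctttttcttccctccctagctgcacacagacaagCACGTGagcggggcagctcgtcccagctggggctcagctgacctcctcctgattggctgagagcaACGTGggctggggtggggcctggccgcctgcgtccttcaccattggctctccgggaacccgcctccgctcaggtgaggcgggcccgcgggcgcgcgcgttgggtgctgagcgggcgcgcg
Egln3 (chr12:54203825-54204124, minus strand): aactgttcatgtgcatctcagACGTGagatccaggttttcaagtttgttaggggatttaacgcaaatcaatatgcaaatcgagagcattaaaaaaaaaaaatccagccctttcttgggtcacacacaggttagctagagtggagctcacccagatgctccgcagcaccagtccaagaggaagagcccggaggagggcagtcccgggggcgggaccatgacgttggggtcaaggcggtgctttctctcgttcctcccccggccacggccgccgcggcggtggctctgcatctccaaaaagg
Car9 (chr4:43506776-43507075, plus strand): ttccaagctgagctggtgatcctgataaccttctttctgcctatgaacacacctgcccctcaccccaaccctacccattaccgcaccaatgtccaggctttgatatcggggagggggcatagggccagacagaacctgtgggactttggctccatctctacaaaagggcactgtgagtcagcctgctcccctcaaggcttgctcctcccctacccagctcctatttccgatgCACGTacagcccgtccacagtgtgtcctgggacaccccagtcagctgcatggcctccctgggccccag
Car12 (chr9:66713436-66713735, plus strand): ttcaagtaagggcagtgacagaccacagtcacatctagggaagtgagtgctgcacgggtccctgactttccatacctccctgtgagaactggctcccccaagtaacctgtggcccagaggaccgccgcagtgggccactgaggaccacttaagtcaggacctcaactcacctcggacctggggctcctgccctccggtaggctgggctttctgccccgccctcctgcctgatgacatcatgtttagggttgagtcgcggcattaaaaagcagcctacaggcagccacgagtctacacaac
Positions are counted from the start, with -1 for the base before it. The Hif1a window held 3 matches, of which the 2 at positions -135 and -134 read the palindrome CACGTG on its 2 strands and overlap, and the third began 70 bases before the start. This RefSeq start lies inside the GENCODE span of Hif1a, which begins upstream of it. Egln3 had 1 match at position -229, and Car9 had 1 at position -18 on the opposite strand. Car12 had neither word in its window. A match is a description of letters and no binding was measured.

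By level, Vegfa stood highest among the 10 genes with a mean of 116 TPM over the 12 libraries, followed by Hif1a (64.9), Egln1 (32.8), Ndrg1 (26.5), Adm (23.1), Vhl (18.9), Car12 (4.19), Egln3 (3.12), Car9 (2.60) and Epas1 (0.331). Since TPM account for length, these levels can be set side by side. 9 of the 10 passed the filter of a mean of at least 1 TPM and were tested among 12504 genes. Epas1 did not pass it and was read from the same fit without the filter (22401 genes). Fold changes below are differences of log2(TPM + 1), which understates the change of low genes, and a gene is said to be called where its adjusted p was under 0.05 (limma with Benjamini-Hochberg adjustment over all genes tested).

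**Figure D1:**
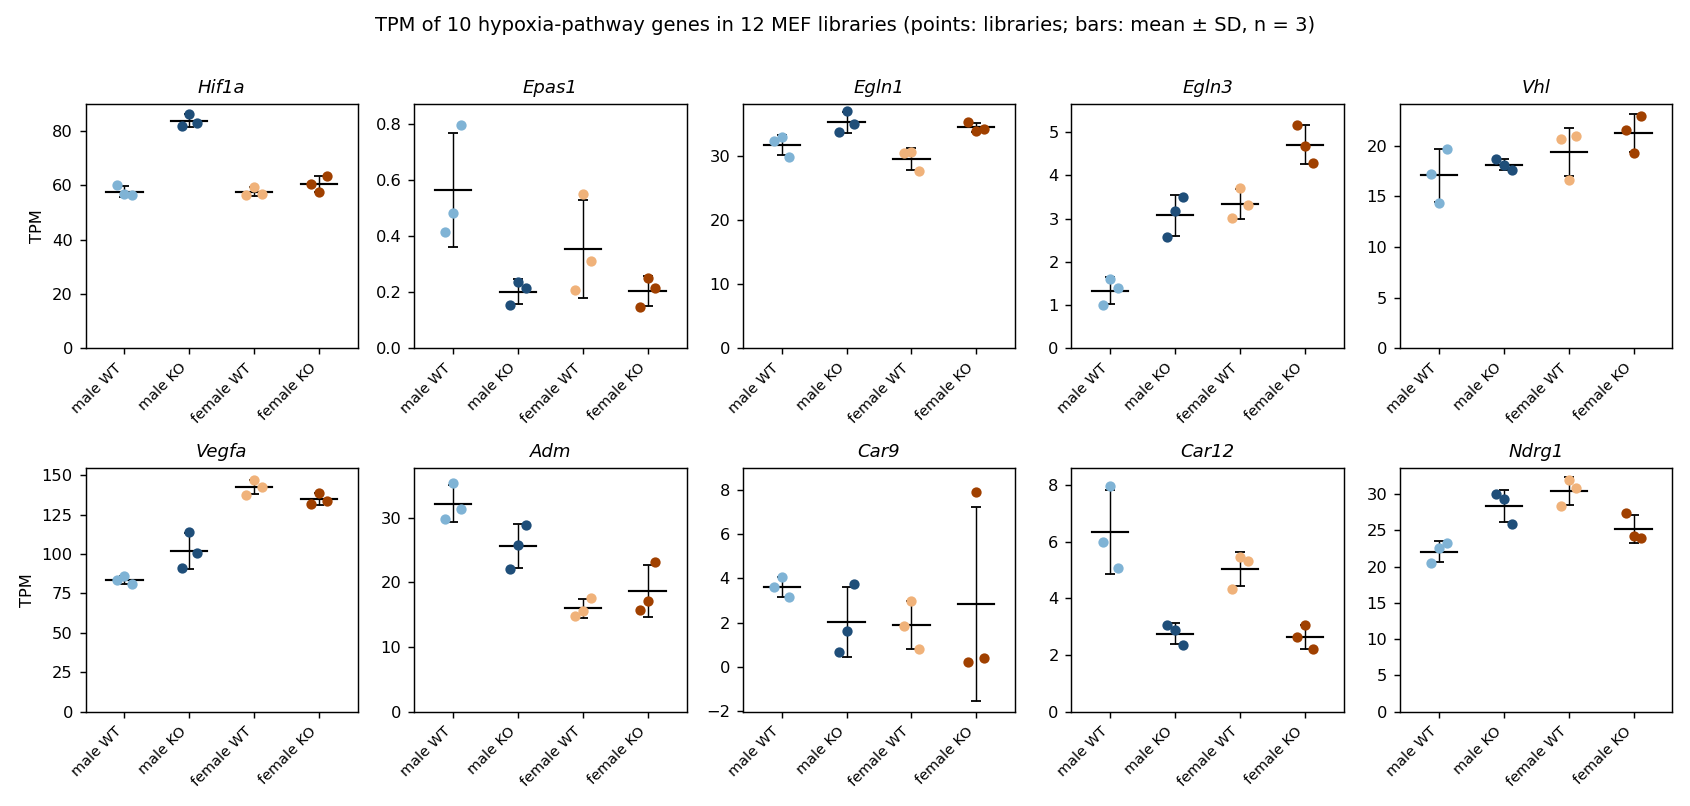
TPM of the 10 genes (vertical axes, each on its own linear scale) in the 4 groups. Points are libraries, and bars are the mean ± SD of 3 libraries. The 3 male KO libraries of Hif1a sit between 81.8 and 86.4 TPM, above the other 9 libraries, while Car12 is lower in both KO groups and Car9 is spread widely in female KO.

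Male KO cells differed from male WT cells in 4 of the 9 genes tested, against 21.6% of all genes tested. Hif1a, Egln3 and Ndrg1 rose and Car12 fell (background 10.7% higher and 10.9% lower). Female KO cells differed from female WT cells in 1 of 9, against 11.5% of all genes, and that gene was again Car12, which fell (5.84% of all genes were called lower). The difference between KO and WT itself differed between the sexes for 3 of 9, Hif1a, Vegfa and Ndrg1, against 13.0% of all genes. In males the libraries of the 2 genotypes did not overlap for 7 of the 9 genes, and this held for 40.0% of all genes tested. In females they did not overlap for 4 of 9, against 33.6% of all genes. The 5 comparisons reported here share libraries with each other, so they are not independent.

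**Figure D2:**
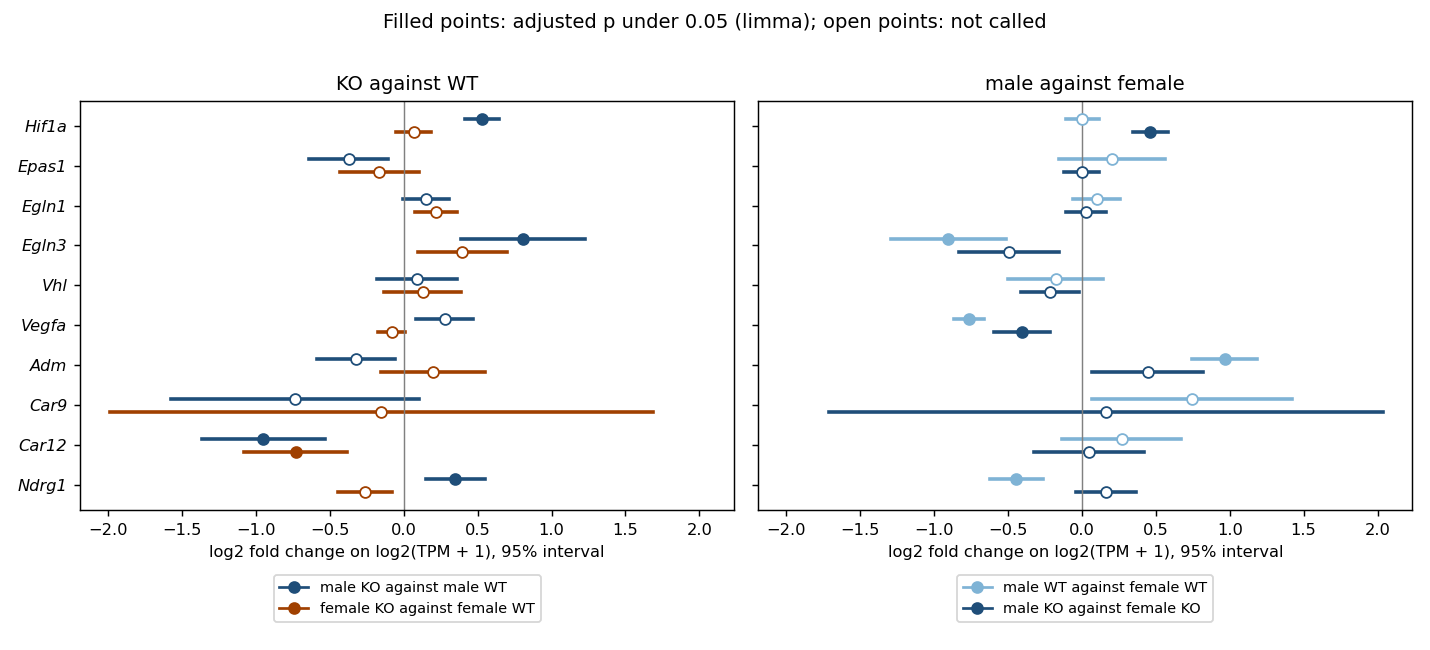
Log2 fold changes of the 10 genes on the log2(TPM + 1) scale (horizontal axes) with 95% intervals, for KO against WT within each sex (left) and male against female within each genotype (right). Filled points had an adjusted p under 0.05, and Epas1 comes from the fit without the filter. Hif1a is filled for males (0.53) and open for females (0.069), Car12 is filled for both (-0.95 and -0.73), and the widest intervals belong to Car9.

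Hif1a (ENSMUSG00000021109.13, GRCm38 chromosome 12 from 73901375 to 73947530, plus strand) encodes the best known oxygen-labile subunit. Its level was 60.0, 56.6 and 56.4 TPM in the male WT libraries, 81.8, 86.4 and 83.0 in male KO, 56.5, 59.4 and 56.8 in female WT and 60.6, 57.6 and 63.3 in female KO. The male KO libraries stood above all others, and the other 3 groups overlapped. In males Hif1a rose 1.45-fold between the means (log2 fold change 0.53, SE 0.048, adjusted p = 0.00043). In females the log2 fold change was 0.069, with a 95% interval from -0.049 to 0.19 and an adjusted p of 0.425. The male difference exceeded the female one by 0.46 (SE 0.066, adjusted p = 0.00068). Hif1a stayed called in males and in this test of the difference when each library was left out in turn.

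Among the 5 other tested genes whose log2(TPM + 1) followed Hif1a most closely over the 12 libraries were Ccdc80 (Pearson r = 0.990), Cdsn (0.983), Nrep (0.981) and Fbln7 (0.981). These 12 points fall into male KO and the rest, so such an r mostly repeats that split. Ccdc80 went from a mean of 47.5 TPM in male WT to 139 in male KO, and from 44.9 in female WT to 57.6 in female KO.

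Epas1 (ENSMUSG00000024140.9, chromosome 17 from 86753700 to 86833410, plus strand) encodes the second oxygen-labile subunit, known best from endothelium. It read 0.413, 0.482 and 0.795 TPM in the male WT libraries, 0.152, 0.237 and 0.216 in male KO, 0.208, 0.548 and 0.310 in female WT and 0.145, 0.251 and 0.215 in female KO. The male groups did not overlap and the female groups did. In the fit without the filter its log2 fold change was -0.37 in males (SE 0.10, adjusted p = 0.102) and -0.16 in females (adjusted p = 0.508). Every value was under 1 TPM, and Hif1a was the main alpha subunit RNA in all 12 libraries. Of the other partners, Arnt, the constant subunit, had means from 43.0 to 46.3 TPM over the 4 groups and was called in no comparison. Hif3a, the third alpha subunit, had group means of at most 0.0838 TPM.

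Egln1 (ENSMUSG00000031987.6, chromosome 8 from 124908587 to 124949324, minus strand) encodes the prolyl hydroxylase that sets the level of the factors in most cells. It read 32.4, 33.0 and 30.0 TPM in the male WT libraries, 33.9, 37.1 and 35.0 in male KO, 30.5, 30.7 and 27.7 in female WT and 35.4, 34.0 and 34.3 in female KO. KO libraries stood above WT libraries in each sex, by small steps. The log2 fold change was 0.15 in males (adjusted p = 0.156) and 0.22 in females (adjusted p = 0.0620), neither of which was called. The female value was called with median-of-ratios scaling (adjusted p = 0.0424) and with all 12 libraries in 1 fit (adjusted p = 0.0324).

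Egln3 (ENSMUSG00000035105.5, chromosome 12 from 54178981 to 54203860, minus strand) encodes a prolyl hydroxylase that is itself induced by the factors it restrains. Its values were 0.994, 1.60 and 1.40 TPM in the male WT libraries, 2.57, 3.17 and 3.49 in male KO, 3.02, 3.70 and 3.31 in female WT and 5.17, 4.69 and 4.28 in female KO. Male WT libraries were lowest and female KO libraries highest, and KO and WT did not overlap in either sex. Egln3 rose 2.31-fold between the means in males (log2 fold change 0.81, SE 0.18, adjusted p = 0.0185). The female log2 fold change of 0.40 (95% interval from 0.096 to 0.70) was not called (adjusted p = 0.0955), and the sexes were not shown to differ (0.41, adjusted p = 0.251). The male call was lost without male WT replicate 1 (adjusted p = 0.0512), male KO replicate 2 (0.0501) or male KO replicate 3 (0.0645). Egln2, the remaining prolyl hydroxylase of this family, had means from 66.3 to 69.5 TPM and was called in no comparison, as was Hif1an, an asparagine hydroxylase that blocks the activity of the factors (14.2 to 15.6 TPM).

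Vhl (ENSMUSG00000033933.13, chromosome 6 from 113623959 to 113631633, plus strand) read 17.2, 14.4 and 19.6 TPM in the male WT libraries, 18.7, 18.1 and 17.6 in male KO, 20.6, 16.6 and 20.9 in female WT and 21.6, 19.2 and 22.9 in female KO. KO and WT libraries overlapped in both sexes. Its log2 fold change was 0.093 in males, with a 95% interval from -0.18 to 0.36 (adjusted p = 0.614), and 0.13 in females, with an interval from -0.13 to 0.39 (adjusted p = 0.4998).

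The rest of the machinery that makes, modifies and destroys the factors was described from a list of 20 genes, of which 19 were tested. In males 2 of the 19 were called higher and 2 lower (10.5% each), near the 10.7% and 10.9% of all genes tested, with a median log2 fold change of 0.046 against -0.015 over all genes. P4htm, a membrane-bound prolyl hydroxylase, rose from 1.40 ± 0.540 to 3.53 ± 1.25 TPM (log2 fold change 0.91, adjusted p = 0.0472), a call that was lost whichever of the 6 libraries was left out. Siah2, a ubiquitin ligase that acts on prolyl hydroxylases, rose from 20.0 ± 1.32 to 27.4 ± 0.468 TPM (log2 fold change 0.44, adjusted p = 0.00541), and its difference between the sexes was called too (0.45, adjusted p = 0.0115). The chaperone genes Hsp90aa1 and Hsp90ab1 fell by 0.31 and 0.17 on the log2 scale. They were named after their values were seen.

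In females 0 genes of the list were called higher and 4 lower (limma), against 5.63% and 5.84% of all genes, with a median of -0.040 against -0.023. Cited2, which competes with the factors for their coactivator, fell from 177 ± 5.24 TPM in female WT to 133 ± 2.33 in female KO (log2 fold change -0.40, adjusted p = 0.00094), whereas it was 178 ± 7.08 in male WT and 182 ± 5.07 in male KO. The difference between the sexes was 0.44 (adjusted p = 0.00023). Usp20, a deubiquitinating enzyme, fell from 10.6 ± 0.448 to 7.83 ± 0.0392 TPM (log2 fold change -0.40, adjusted p = 0.0246), a call that was lost whichever of the 6 female libraries was left out. The other 2 were Hsp90aa1 and Hsp90ab1, each lower by 0.12. The call of Hsp90aa1 was lost in 11 of 14 alternatives and that of Hsp90ab1 in 8, among them median-of-ratios scaling for both.

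Vegfa (ENSMUSG00000023951.17, chromosome 17 from 46016993 to 46032369, minus strand) encodes the main growth factor of blood vessels. Male WT libraries read 83.7, 86.0 and 80.8 TPM, male KO 90.9, 114 and 101, female WT 138, 147 and 143, and female KO 132, 139 and 133. All 6 female libraries stood above all 6 male libraries, and male KO stood above male WT. Female WT exceeded male WT 1.70-fold between the means, a log2 fold change of -0.76 for male against female (SE 0.043, adjusted p = 9.63e-05). Among KO cells the same comparison gave -0.40 (SE 0.080, adjusted p = 0.0153). That call was lost without male KO replicate 3 (0.0574), without female KO replicate 2 (0.0578) and without the filter on low values (0.0736).

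Between KO and WT, the estimate for Vegfa was 0.28 in males (95% interval from 0.085 to 0.47, adjusted p = 0.0516) and -0.081 in females (95% interval from -0.17 to 0.012, adjusted p = 0.241). The difference between these was called (0.36, SE 0.095, adjusted p = 0.0290). It was not called when 7 of the 12 libraries were left out in turn, with adjusted p up to 0.0689, nor without the filter (0.0550) or without the mean-variance trend (0.0537). The male value crossed the threshold with median-of-ratios scaling (0.0203), quantile normalization (0.0257), a filter of at least 5 TPM (0.0418) and all 12 libraries in 1 fit (0.0099), and without male KO replicate 1 (0.0211).

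Adm (ENSMUSG00000030790.15, chromosome 7 from 110627661 to 110629820, plus strand) encodes adrenomedullin, a peptide that widens blood vessels. Its values were 29.8, 35.3 and 31.4 TPM in the male WT libraries, 22.1, 25.8 and 28.9 in male KO, 14.8, 15.5 and 17.6 in female WT and 15.7, 17.1 and 23.2 in female KO. Male WT was highest and did not overlap with any other group. Adm was 2.01-fold higher in male WT than in female WT (log2 fold change 0.97, SE 0.093, adjusted p = 0.00101), the reverse of Vegfa. Among KO cells the log2 fold change was 0.44 (95% interval from 0.068 to 0.82, adjusted p = 0.110), and the groups overlapped. KO against WT gave -0.32 in males (adjusted p = 0.0836) and 0.20 in females (adjusted p = 0.444), neither called.

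Receptors and related ligands were read from a list of 19 genes, 16 of them tested. In males 3 were called higher (Adm2, Vegfd and Nrp1) and 2 lower (Flt4 and Ramp3), which is 31.2% of the 16 against 21.6% of all genes, with a median of -0.047 against -0.015. The Nrp1 call was lost in 7 of 14 alternatives, among them leaving out any male WT library or male KO replicate 2 or 3. In females 1 was called higher (Nrp2) and 2 lower (Kdr and Flt4), which is 18.8% against 11.5%, with a median of -0.10 against -0.023. Vegfd, Nrp1 and Nrp2 were named after their values were seen. Kdr, the main receptor of Vegfa, fell from 4.77 ± 0.425 TPM in female WT to 1.76 ± 0.113 in female KO (log2 fold change -1.06, adjusted p = 0.00368). In males Kdr was 1.45 ± 0.184 and 1.23 ± 0.110 TPM, and the sexes differed (0.93, adjusted p = 0.00625). Flt1, a second receptor of Vegfa, was not called between KO and WT in either sex but was higher in female WT (17.4 ± 1.53 TPM) than in male WT (9.47 ± 1.21, adjusted p = 0.0043), as Vegfa was. Flt4, the receptor of Vegfc and Vegfd, fell from 12.8 ± 0.722 to 2.69 ± 0.344 TPM in males and from 9.43 ± 0.462 to 4.98 ± 0.119 in females, and fell further in males (interaction -1.11, adjusted p = 0.00021).

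The receptor of Adm is Calcrl together with a Ramp protein. Calcrl was near 1 TPM, with group means from 0.595 to 1.63, and Ramp2 had means from 1.81 to 3.20; neither was called in any comparison. Ramp3 fell from 6.17 ± 0.590 to 2.48 ± 0.520 TPM in males (log2 fold change -1.05, adjusted p = 0.00362), and in females it was 3.55 ± 1.33 and 2.04 ± 0.874. Adm2, which encodes a related peptide, rose in males from 3.22 ± 0.323 to 7.43 ± 0.988 TPM (log2 fold change 0.996, adjusted p = 0.00263) while Adm itself had a negative estimate. The male and female differences of Adm2 differed by 1.24 (adjusted p = 0.00098).

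Car12 (ENSMUSG00000032373.15, chromosome 9 from 66713686 to 66766845, plus strand) encodes a membrane-bound enzyme that hydrates CO2 outside the cell. It read 5.99, 7.95 and 5.07 TPM in the male WT libraries, 3.06, 2.87 and 2.35 in male KO, 4.34, 5.45 and 5.31 in female WT and 2.64, 3.06 and 2.22 in female KO. Each of the 6 KO libraries was below each of the 6 WT libraries. The log2 fold change was -0.95 in males (SE 0.18, adjusted p = 0.00982) and -0.73 in females (SE 0.15, adjusted p = 0.0241), and the sexes were not shown to differ (-0.22, 95% interval from -0.73 to 0.28). The female call was lost without female WT replicate 2 (adjusted p = 0.0787), female WT replicate 3 (0.0844), female KO replicate 1 (0.0690) or female KO replicate 3 (0.0683), and without the filter (0.0627). The male call held without each of the 6 libraries.

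Car9 (ENSMUSG00000028463.14, chromosome 4 from 43506966 to 43513729, plus strand) encodes a related surface enzyme and is widely used to mark hypoxic cells. Its values were 3.63, 4.07 and 3.17 TPM in the male WT libraries, 0.695, 1.63 and 3.77 in male KO, 1.86, 3.00 and 0.820 in female WT and 0.209, 7.92 and 0.404 in female KO. Male WT lay above all female WT libraries, but within male KO and within female KO the libraries spanned more than the difference between KO and WT means. Female KO replicate 2 held the highest value of all 12 libraries, and the other two of its group the lowest. No comparison of Car9 was called: KO against WT gave -0.73 in males (SE 0.36, adjusted p = 0.194) and -0.15 in females (SE 0.77, adjusted p = 0.925). The female ratio of mean TPM was 1.504, opposite in sign to the mean on the log scale. Without male KO replicate 3 the male value was -1.13 and called (adjusted p = 0.0310), and without female KO replicate 2 the female value was -1.08 and not called (adjusted p = 0.150).

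Of 14 other carbonic anhydrases, 6 were tested, and 1 was called higher and 1 lower in males, against 10.7% and 10.9% of all genes, and 0 higher and 2 lower in females, against 5.63% and 5.84%. Car2, the main cytosolic enzyme, fell from 1.99 ± 0.229 to 0.697 ± 0.239 TPM in males (log2 fold change -0.82, adjusted p = 0.0199) and from 6.21 ± 1.502 to 1.65 ± 0.902 in females (-1.48, adjusted p = 0.0204), as Car12 did. The male Car2 call was lost without male WT replicate 1 or 3 or male KO replicate 1, and the female one without female WT replicate 2 or 3 or female KO replicate 1. Car6, a secreted enzyme, rose from 0.990 ± 0.116 to 5.09 ± 0.768 TPM in males (log2 fold change 1.61, adjusted p = 0.00057) and fell from 1.90 ± 0.554 to 0.420 ± 0.166 in females (-1.02, adjusted p = 0.0265). The female Car6 call was lost in 7 of 13 alternatives, but the interaction for Car6, 2.63 (adjusted p = 3.94e-05), was called in all 18 of its own.

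Ndrg1 (ENSMUSG00000005125.13, chromosome 15 from 66929318 to 66969640, minus strand) encodes a cytoplasmic protein induced by hypoxia and other stresses. It read 20.4, 22.5 and 23.2 TPM in the male WT libraries, 29.9, 29.4 and 25.8 in male KO, 28.3, 32.0 and 30.9 in female WT and 27.4, 24.2 and 24.0 in female KO. KO stood above WT in males and below WT in females, with no overlap in either sex. The male rise of 1.29-fold was called (log2 fold change 0.35, SE 0.084, adjusted p = 0.0264), and the female log2 fold change of -0.26 (95% interval from -0.44 to -0.079) was not (adjusted p = 0.0786). The difference of 0.61 between the sexes was called (SE 0.11, adjusted p = 0.00412) and stayed so without each of the 12 libraries. The male call was less firm: it was lost without 5 of the 6 libraries, all but male KO replicate 3, with adjusted p up to 0.0833, and without the filter (0.0627). Ndrg2, Ndrg3 and Ndrg4, of the same family, were called in no KO against WT comparison.

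Against the other sex, 4 of the 9 genes were called between male WT and female WT, where 12.8% of all genes were. Adm was higher in males (6.26% of all genes were), and Vegfa, Egln3 and Ndrg1 were higher in females (6.56%). The libraries of the WT groups did not overlap for 5 of the 9 genes, and for 33.4% of all genes. Egln3 was 2.51-fold higher in female WT (log2 fold change -0.90 for male against female, SE 0.16, adjusted p = 0.0137; 0.0522 without female WT replicate 2), and Ndrg1 was 1.38-fold higher (-0.45, SE 0.075, adjusted p = 0.0105). Hif1a showed 0.0022 between the WT groups, with a 95% interval from -0.11 to 0.11. Between male KO and female KO, 2 of 9 genes were called against 16.6% of all genes: Hif1a was higher in males (0.46, SE 0.051, adjusted p = 0.00119) and Vegfa lower (background 8.17% higher and 8.39% lower). The KO libraries of the sexes did not overlap for 4 of 9, against 35.4%. For Ndrg1 this KO comparison gave 0.16 (95% interval from -0.037 to 0.37), and for Egln3 -0.49 (adjusted p = 0.0603).

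To place these genes among other targets of the factors, 54 further targets were listed, of which 48 were tested. In males 20 of the 48 (41.7%) were called, 16 higher and 4 lower (Slc2a3, Hk1, Tfrc and Wsb1) in KO, against 21.6% of all genes. In females 13 (27.1%) were called, 7 higher and 6 lower, against 11.5%. The medians over the list were near 0 in both sexes, 0.022 in males and -0.042 in females, beside -0.015 and -0.023 over all genes. 7 targets were called in both sexes, which is 35.0% of the male calls and 53.8% of the female ones. The share of all genes called in both sexes was not computed, so this overlap is only a description. Ddit4, P4ha1, Pfkl and Plod1 rose in both, while Lox and Stc2 rose in males and fell in females; these 10 were named after their values were seen. The female call of P4ha1 held under all 14 alternatives, and those of Ddit4, Lox, Pfkl, Plod1 and Stc2 did not. The male calls of Tfrc and Wsb1 were each lost in 7 of 14 alternatives, among them leaving out any male WT library or male KO replicate 1 or 3. The male count ranged from 17 to 22 over all alternatives, with 2 to 5 of them lower. The female count fell to 5 without female WT replicate 2 and without female KO replicate 2 or 3, and to 6 without the filter.

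**Figure D3:**
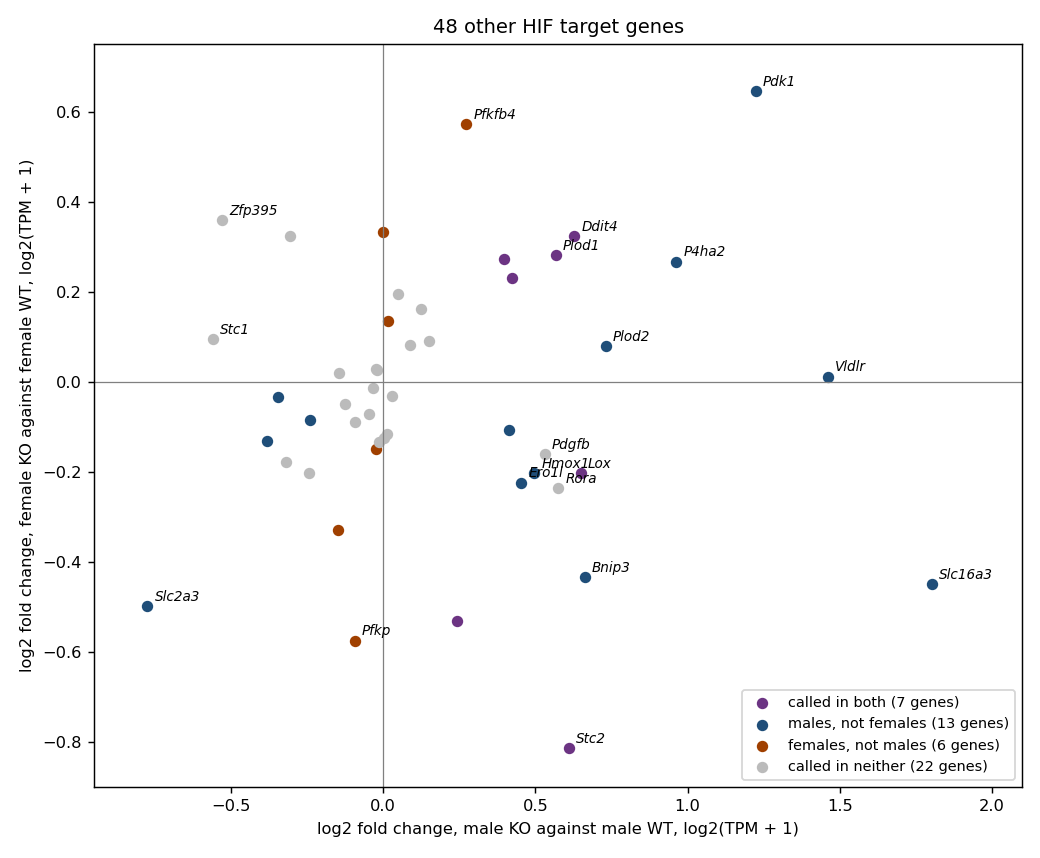
Log2 fold change between KO and WT on the log2(TPM + 1) scale in males (horizontal axis) and females (vertical axis) for the 48 other targets tested. Each point is a gene, coloured by the sex in which it had an adjusted p under 0.05. Slc16a3 (1.80), Vldlr (1.46) and Pdk1 (1.22) lie farthest to the right, and Lox and Stc2 are called on opposite sides of 0.

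The 4 targets with the largest called changes all rose in males. Slc16a3, which exports lactate, went from 12.6 ± 2.24 TPM in male WT to 46.0 ± 2.65 in male KO (log2 fold change 1.80, adjusted p = 0.00014), and was 18.6 ± 2.46 and 13.3 ± 1.95 in females (interaction 2.25, adjusted p = 1.6e-05). Vldlr, a lipoprotein receptor, rose from 6.53 ± 1.08 to 19.6 ± 0.677 TPM (log2 fold change 1.46, adjusted p = 0.00027), with female means of 5.68 and 5.85. Pdk1, a kinase that keeps pyruvate out of the mitochondrial cycle, rose from 3.54 ± 0.294 to 9.62 ± 0.770 TPM (1.22, adjusted p = 0.00049). In females Pdk1 was 2.59 ± 0.843 and 4.54 ± 0.826 TPM (0.65, adjusted p = 0.103), and the sexes were not shown to differ (0.58, adjusted p = 0.161). P4ha2, a collagen prolyl hydroxylase, rose from 57.8 ± 5.73 to 113 ± 9.10 TPM (0.96, adjusted p = 0.00044), more than in females (interaction 0.69, adjusted p = 0.00275).

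The targets did not move as a block. All 5 collagen-modifying genes of the list (P4ha1, P4ha2, Plod1, Plod2 and Lox) were called higher in males, against 10.7% of all genes. Their median log2 fold change was 0.65 in males. In females 2 were called higher (P4ha1 and Plod1) and 1 lower (Lox), against 5.63% and 5.84%, with a median of 0.23. All 5 were called in the test of the difference between the sexes, against 13.0% of all genes. There the call of Plod1 was lost in 6 of 19 alternatives. Of 13 genes for glucose uptake and glycolysis, 1 rose (Pfkl), 2 fell (Slc2a3 and Hk1) and 10 were not called in males, where 21.6% of all genes were called, with a median of -0.046. In females 2 of the 13 were called higher (Pfkl and Pgk1) and 2 lower (Pfkp and Aldoa), where 11.5% of all genes were called. Of 14 alternatives, the female call of Pgk1 was lost in 10, among them leaving out any of the 6 libraries, that of Pfkl in 8, that of Aldoa in 5 and that of Pfkp in 0. These groups were formed after the values were seen, so their counts are a description. The 13 leave out Pfkfb3 and Pfkfb4 of the same list. Pfkfb4 was called higher in females (8.84 ± 0.628 TPM in WT and 13.6 ± 1.24 in KO), a call lost in 4 of 14 alternatives. Pfkfb3 was not called between KO and WT in either sex. Its means were lower in KO, 8.26 and 6.83 TPM in male WT and KO and 10.2 and 8.77 in female WT and KO. Across the 48 targets, 15 had a called difference between the sexes with a more positive KO against WT change in males than in females. For 1 (Hk1) the order was the reverse, against 6.70% and 6.33% of all genes in these directions. Such a call need not be a rise in male KO. Pfkp, for example, had means of 31.3 and 29.5 TPM in male WT and KO and 30.8 and 20.4 in female WT and KO. The call of Hk1 was lost in 6 of 19 alternatives. Over these the count with the more positive change in males ranged from 11 to 15, and the count in the direction of Hk1 from 0 to 3.

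Genes that mark other cell types also moved with male KO. The summed TPM of 8 kidney lineage and mesothelial markers was 38.5 to 48.4 in male WT, 81.0 to 89.7 in male KO, 21.0005 to 23.8 in female WT and 13.8 to 15.5 in female KO, and 3, 6, 3 and 2 of the 8 had a mean of at least 1 TPM. Pax8 had a mean of 34.0 TPM in male KO and at most 0.360 in any other group, and Pax2, at 3.77 in male KO, was listed at 0 in the other 9 libraries. The list did not move one way, with 3 of its 5 tested members called higher in male KO and 1 lower. Wt1 rose from 1.45 to 4.83 TPM in males and fell from 3.34 to 0.479 in females. Msln, a mesothelial marker of the same list, fell in males from 28.7 to 1.30 TPM, and Lhx1 and Upk3b had means under 1 TPM in every group. Of 7 endothelial markers, Erg alone reached 1 TPM, with 2.61 in male WT and 10.7 in male KO, and Cdh5 was listed at 0 in male KO. The sum over the 7 was 2.29 to 5.39, 9.77 to 12.1, 1.36 to 1.98 and 1.13 to 1.48 in the same order of groups. Hif1a, Egln3, Ndrg1 and the collagen-modifying targets rose in the same libraries; the part of these marker genes in that was not tested.

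Epithelial markers were lower in KO than in WT, as Car12 was. The sum over 6 epithelial markers was 76.1 to 77.8 TPM in male WT, 7.90 to 8.78 in male KO, 19.8 to 22.9 in female WT and 7.40 to 10.3 in female KO, with 3, 1, 3 and 1 of the 6 at a mean of at least 1 TPM. Krt19, an epithelial keratin, held most of it (67.2, 7.47, 14.8 and 6.44 TPM), and Cldn4 was listed at 0 in male KO. Msln, which belongs to the kidney lineage and mesothelial list and not to this one, had means of 28.7, 1.30, 12.6 and 5.63 TPM, whereas Wt1 of that list rose in male KO. Like Car12, Krt19 and Msln were lower in KO than in WT in each sex, and their part in the Car12 difference was not tested. In such bulk RNA, fewer cells of a type and less RNA per cell cannot be told apart. Immune markers summed to at most 11.4 TPM in any library with Adgre1 listed at 0 in all, and muscle and nerve markers to at most 24.9 TPM. The fibroblast sum was 11082 to 12270 TPM in male WT, 14174 to 14968 in male KO, 9532 to 9794 in female WT and 11704 to 12067 in female KO. In males 6 of the 13 were called higher in KO and 2 lower, against 10.7% and 10.9% of all genes tested. Col1a1 went from 3184 to 4807 TPM in males, while Prrx1 went from 139 to 92.0 and Twist1 from 124 to 94.9. In females 9 were called higher and 0 lower, against 5.63% and 5.84%.

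**Figure D4:**
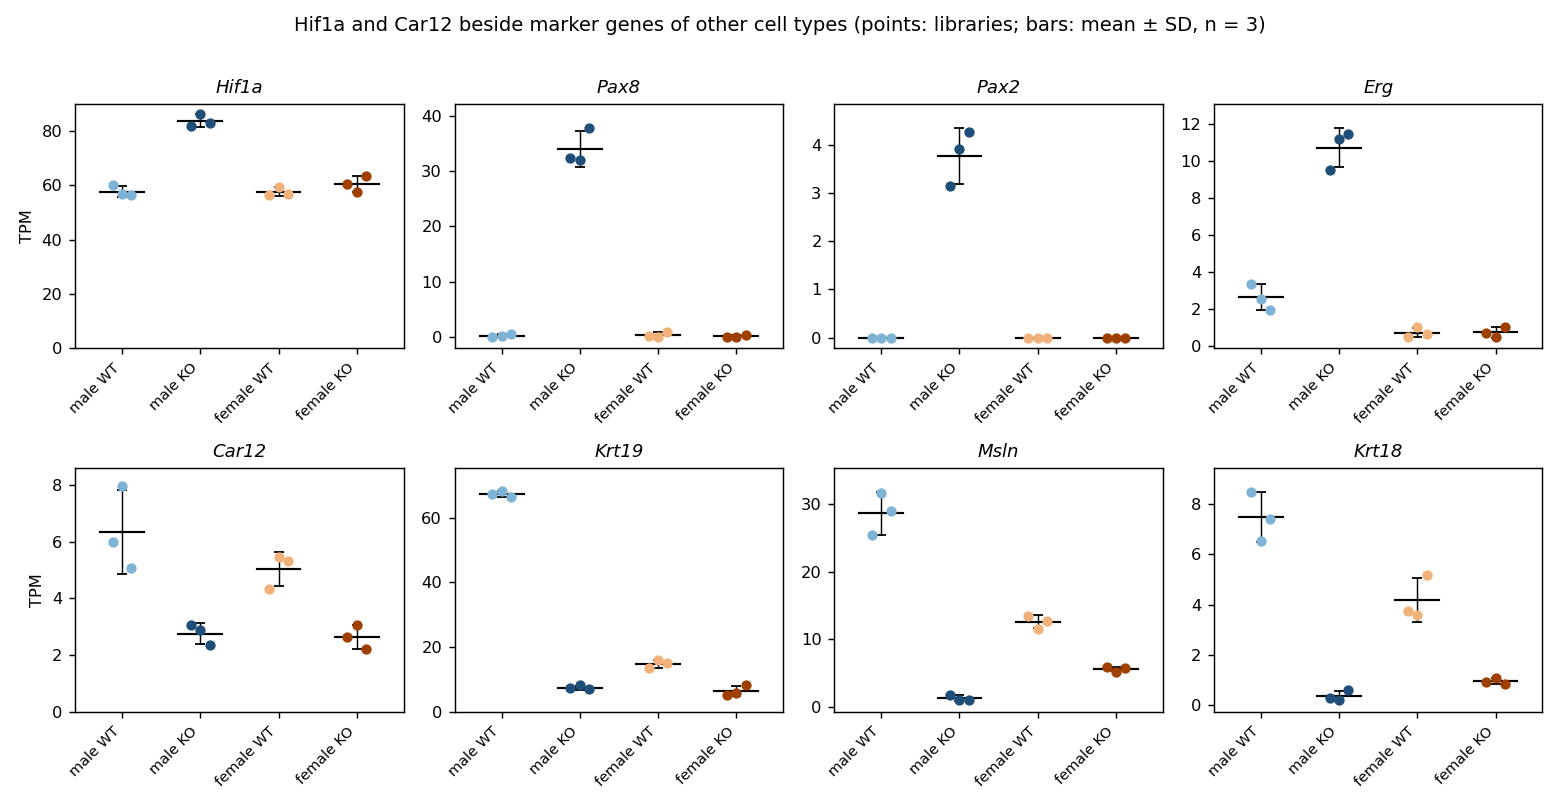
TPM of Hif1a and Car12 (first column) beside 6 marker genes of other cell types in the 4 groups. Points are libraries and bars are the mean ± SD of 3 libraries. Pax8, Pax2 and Erg are highest in male KO, as Hif1a is, and Krt19, Krt18 and Msln are lower in KO than in WT in each sex, as Car12 is.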

How the data were processed

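Polyadenylated RNA of 12 MEF cultures was sequenced. The authors quantified reads with Salmon (1.10.1 per the submitters' processing notes) on GRCm38 and deposited TPM for 34866 genes, of which 12465 were at 0 in every library. TPM keep no depth, so no count model was used. Symbols and positions came from GENCODE M21 (99.4% of identifiers matched). limma 3.58.1 in R 4.3.3, with a mean-variance trend, was run on log2(TPM + 1) for the 12504 genes whose mean reached 1 TPM, with Benjamini-Hochberg adjustment, in fits of 6 libraries (the interaction: 12). The code was tested on simulated data, with 200 of 12504 genes changed. Of genes changed by 0.5 on the log2 scale, 61% were recovered in the male fit and 52% in the female fit. At a change of 1 it was 71% in each, so a gene that was not called may still differ. The 10 genes, the lists and the tests were chosen with earlier results of these data known. Named are all 10, Sirt3, up to 4 called genes per list with the largest KO against WT change, direct partners, and the 5 genes most like Hif1a; 2 genes are not reported here. Deviations of same-numbered libraries correlated from -0.057 to 0.078. Alternatives were no filter or a filter at 5 TPM, a pseudocount of 0.1, no trend, quantile normalization, median-of-ratios scaling, all libraries in 1 fit, a replicate block and leaving out each library; their use for the listed genes was chosen after seeing the data. Ero1a and Figf were read as Ero1l and Vegfd.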

Additional observations from a re-analysis of the deposited data

Results flagged for a closer look

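The KO against WT difference of 3 of the 10 genes differed between the sexes in limma's test of the interaction (male difference minus female difference, 12 libraries). It was 0.461 for Hif1a (95% interval from 0.32 to 0.61), with male KO above male WT in 3 of 3 libraries and female KO overlapping female WT. It was 0.61 for Ndrg1 (95% interval from 0.36 to 0.86), where all male KO libraries were above male WT and all female KO libraries below female WT. It was 0.358 for Vegfa (95% interval from 0.15 to 0.57), where neither sex was called by itself. Background for this test is 13.0% of all genes.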

How the results depend on the processing

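Of 725 repeats of the 10 genes' fold changes over the comparisons and alternatives, 659 kept direction and side of the threshold, 29 lost a call, 16 gained one and 21 changed sign. The causes were not tested. By construction some alternatives leave fewer libraries or genes, and the fit without the filter holds more genes (22401 against 12504). Genes under a mean of 5 TPM (Egln3, Car9, Car12 and Epas1) have no value under that filter.

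Of the 9 genes, the number called between female KO and female WT was 0 without the filter and at a mean of at least 5 TPM, and 2 with median-of-ratios scaling and with all 12 libraries in 1 fit; with 1 library left out it was 0 to 1. In males it was 2 to 4 with 1 left out. Between male KO and female KO it was 1 without the filter, 4 with all 12 libraries and 1 to 3 with 1 left out. With 1 library left out, the count over all genes ran from 774 to 835 (female KO against WT), 1037 to 1243 (WT sexes) and 1328 to 1824 (KO sexes).

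The replicate numbers do not pair the libraries (no correlation over 0.1, and not every library was closest to its own number). With the replicate block the counts over all genes were 2366 in males, 670 in females, 1114 and 1397 between the sexes in WT and KO, and 1518 for the interaction; of the 9 genes 4, 0, 4, 3 and 4 were called. Under the block, Ndrg1 in males had an adjusted p of 0.0646, Car12 in females 0.0684, Vegfa in males 0.0493, and Adm 0.0371 between the KO sexes and 0.0435 for the interaction.

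No called value changed sign. Epas1 between the KO sexes was 0.039 after quantile normalization. With 1 library left out, log2 fold changes that crossed 0 ran from -0.018 to 0.19 for Vhl in males, -1.08 to 0.36 for Car9 in females, -0.026 to 0.025 for Hif1a between WT sexes, and, between KO sexes, -0.038 to 0.028 for Epas1, -0.038 to 0.13 for Car12, -0.0037 to 0.060 for Egln1 and -0.35 to 1.09 for Car9. For the interaction they ran from -0.15 to 0.065 for Vhl and -1.10 to 0.34 for Car9.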
